A study of Mus musculus with 27 samples.

Results

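The Hox genes encode the homeodomain transcription factors that pattern the head-to-tail axis. Here they were taken as all genes whose symbol is Hoxa, Hoxb, Hoxc or Hoxd plus a number, found through the RefSeq accession of each probe, and 38 of the 37208 genes or transcripts on the arrays are described here. They are 10 genes of the Hoxa cluster, 10 of Hoxb, 9 of Hoxc and 9 of Hoxd. By paralog number, 11 genes belonged to groups 1 to 4, 11 to groups 5 to 8 and 16 to groups 9 to 13. Where a gene had several probes, the brightest over the 27 arrays stood for it.

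The study followed mouse embryonic stem cells (ESCs) as they formed blood and vascular cells in culture and asked what AP-1, the dimeric factor made of FOS, JUN and ATF proteins, contributes. RNA from 13 groups was measured on one-colour Agilent arrays, with 3 arrays for untreated smooth muscle cells and 2 for every other group. Untreated groups were freshly purified FLK1+ cells from embryoid bodies at day 3.75, complete blast cultures (BC) grown from them with IL-6 and VEGF for 5 h or 1 day (d1 BC), and populations sorted on day 2. The sorted populations were smooth muscle cells (SM), early hemogenic endothelium (HE1, KIT+TIE2+CD41-), late hemogenic endothelium (HE2, KIT+TIE2+CD41+) and floating hematopoietic progenitors (HP, KIT+TIE2-CD41+). All except the fresh FLK1+ cells had a counterpart grown with 1 µg/ml doxycycline (DOX) for the whole blast culture. DOX induces dnFOS, a dominant-negative FOS with a Flag tag, which blocks DNA binding by AP-1. All cells, untreated ones included, descended from A2lox ESCs with this transgene at the Hprt locus, taken as picked clones, so that DOX was compared within a single engineered background. The ESCs had been grown on mouse embryonic feeder cells and then for 2 days without them. The labels name no separate cultures behind the replicates, and p-values therefore measure the spread between these samples, which may be technical.

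In mammals, the 4 Hox clusters arose by duplication, and genes with the same number in different clusters are paralogs. Genes at the 3′ end of a cluster, those with low numbers, are switched on first and most anteriorly in the embryo, and genes with high numbers follow later and more posteriorly, an order known as colinearity. Retinoic acid, WNT and FGF signals and the caudal (Cdx) factors open the clusters in mesoderm, MLL complexes maintain their activity, and Hox proteins bind DNA together with TALE homeodomain partners of the PBX and MEIS families. In blood, Hoxa and Hoxb genes are active in stem and progenitor cells, Hoxb4 is known for expanding progenitors derived from ESCs, and Hoxa9 is known from leukaemia.

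Values are log2 probe signals minus the 75th percentile of the same array, so that 0 is the level of a probe brighter than 75% of probes, and they compare arrays for a gene but not genes with each other. A probe was called above background by the scanner software, array by array. The arrays differed in brightness, with 46.9% (FLK1+ replicate 2) to 89.6% (SM replicate 2) of probes well above background and replicate correlations of 0.911 to 0.970. The next highest share was 74.8%, on HE2 replicate 2. Hoxa10, Hoxa11 and Hoxb13 were above background on SM replicate 2 alone. Replicate 2 of SM stood apart, and so did replicate 2 of SM with DOX: the summed log2 level of the 5 endothelium markers (Cdh5, Pecam1, Tek, Tie1, Esam) was 5.05 and 5.33 there against 0.67 to 1.25 on the other 3 SM arrays and 6.12 to 7.00 in untreated HE1. Smooth muscle markers were at 10.05 to 11.05 on the untreated SM arrays. Among progenitors, replicate 2 of HP and of HP with DOX had smooth muscle markers at 8.12 and 7.98 against 5.74 and 6.24 in replicate 1. Among untreated cells, the hematopoietic markers were highest in HP, at 6.65 to 6.85 against 2.70 to 3.15 in SM. Hprt, beside the transgene, rose by 2.80 ± 0.23 (SE) over the 6 populations with DOX (adjusted p = 1.02e-05, limma).

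Hox transcripts were detectable in every population, but few of the genes were detected everywhere. Hoxb2, Hoxb4 and Hoxd1 were above background on every array, and 8 of the 38 genes (Hoxa2, Hoxa10, Hoxa11, Hoxb13, Hoxc5, Hoxc11, Hoxc13 and Hoxd12) were so on all arrays of no group. In untreated cells, 9 of 38 were detected on both arrays of FLK1+ cells, 11 at 5 h and 14 in d1 BC. SM had 22 and HE1 19, HE2 had 13 and HP 11. Over all genes, the share detected on all arrays was 51.9% for FLK1+ cells, 58.7% for SM, 58.3% for HE1, 56.6% for HE2 and 65.2% for HP, so the fall in detected Hox genes from HE1 to HP ran against the rise over all genes. SM was judged on 3 arrays, which makes detection on every array a stricter demand there.

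**Figure D1:**
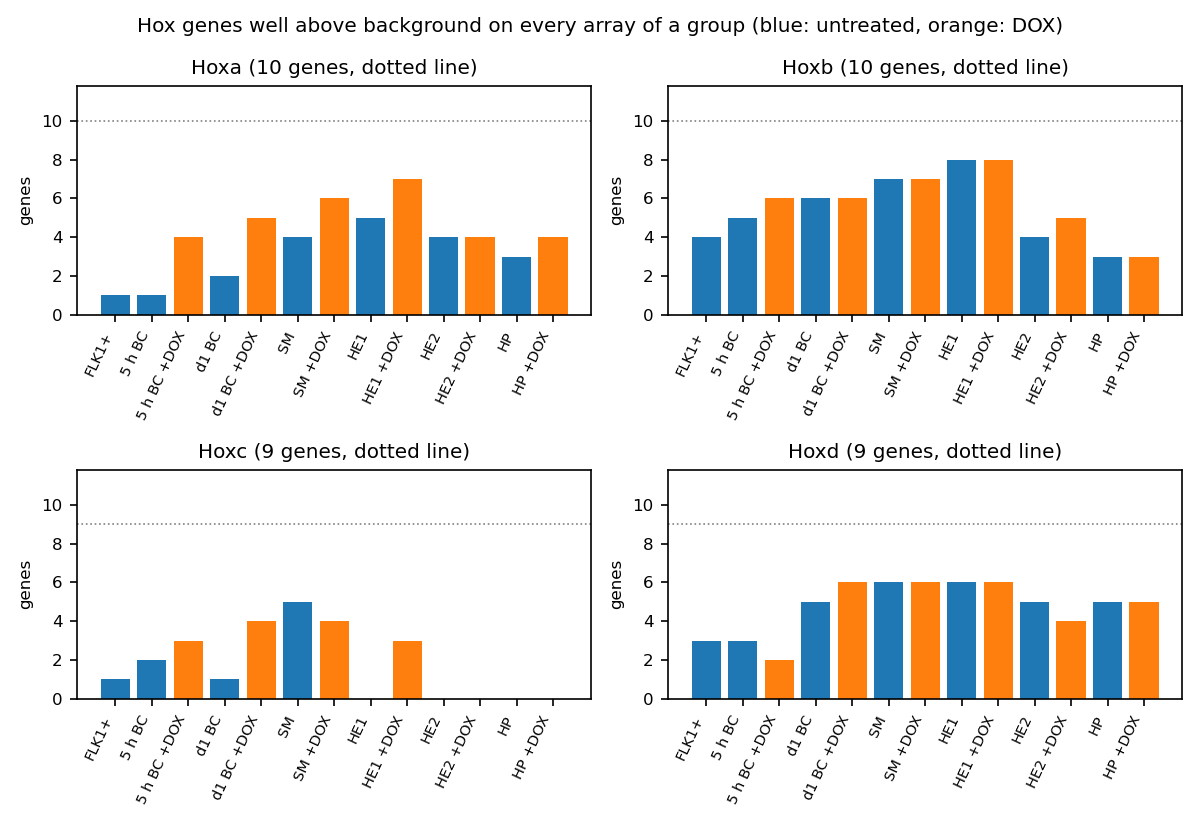
Number of Hox genes (vertical axis) well above background on every array of a group, for each cluster in the 13 groups (horizontal axis). Blue bars are untreated groups, orange bars DOX groups, and the dotted line marks how many genes of the cluster are described. Hoxc is at 5 genes in SM and at 0 in HE1, HE2 and HP, where in HE1 each of the 9 genes was detected on 1 of the 2 arrays. Hoxd stays at 5 or 6 genes from d1 BC on in untreated cells.

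The clusters were not detected alike. Hoxb had 4 detected genes in FLK1+ cells, 8 in HE1, 4 in HE2 and 3 in HP. Hoxc reached 5 genes in SM and 0 in HE1, HE2 and HP. In HE1 this was a split between replicates, each of the 9 Hoxc genes being detected on 1 of the 2 arrays, while 4 of them were detected on no HE2 array and 5 on no HP array. Hoxd kept 5 or 6 genes from d1 BC through HP. Of paralog groups 9 to 13, the late and posterior genes, 2 were detected in FLK1+ cells, 4 in d1 BC, 8 in SM and 2 in HP, and of groups 1 to 4 the numbers were 6, 6, 7 and 6.

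Among the 7 untreated groups, 27 Hox genes could be tested (those detected throughout 1 or more of the groups) and 19 differed by the F-test (limma, adjusted p under 0.05), beside 17.9% of all 27457 genes tested. A gene detected in few populations was tested through the groups where it was high, which favours a difference, so this count is a description. The same holds for the counts and medians of tested genes in the pairwise comparisons, and those over genes detected on every array of both groups are given beside them where the filter matters most. Only Hoxb2, Hoxb4 and Hoxd1 were detected in every group, and of these Hoxb2 and Hoxb4 differed while Hoxd1 had an adjusted p of 0.911. By cluster, 9 of 9 tested Hoxb genes differed (Hoxb1 to Hoxb9), 4 of 5 Hoxc genes, 5 of 8 Hoxd genes and 1 of 5 Hoxa genes. The highest mean lay in SM for 7 of the 19 (Hoxb6, Hoxb9, Hoxc4, Hoxc8, Hoxc9, Hoxc10, Hoxd10), in HE1 for 8 (Hoxa13, Hoxb4, Hoxb5, Hoxb7, Hoxb8, Hoxd3, Hoxd4, Hoxd8), in FLK1+ cells for Hoxb1, Hoxb2 and Hoxb3, and at 5 h for Hoxd13. The peak of Hoxb3 depends on the probe: a second, dimmer probe averaged -3.19 in FLK1+ cells and was highest in d1 BC, at -1.53. A second Hoxa13 probe averaged -3.01 in SM and -3.09 in HE1 and was above background on no array of d1 BC or HE2. Without 5 h BC replicate 1, 12 genes passed. With normexp background correction 8 passed, and with the authors' values 9.

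**Figure D2:**
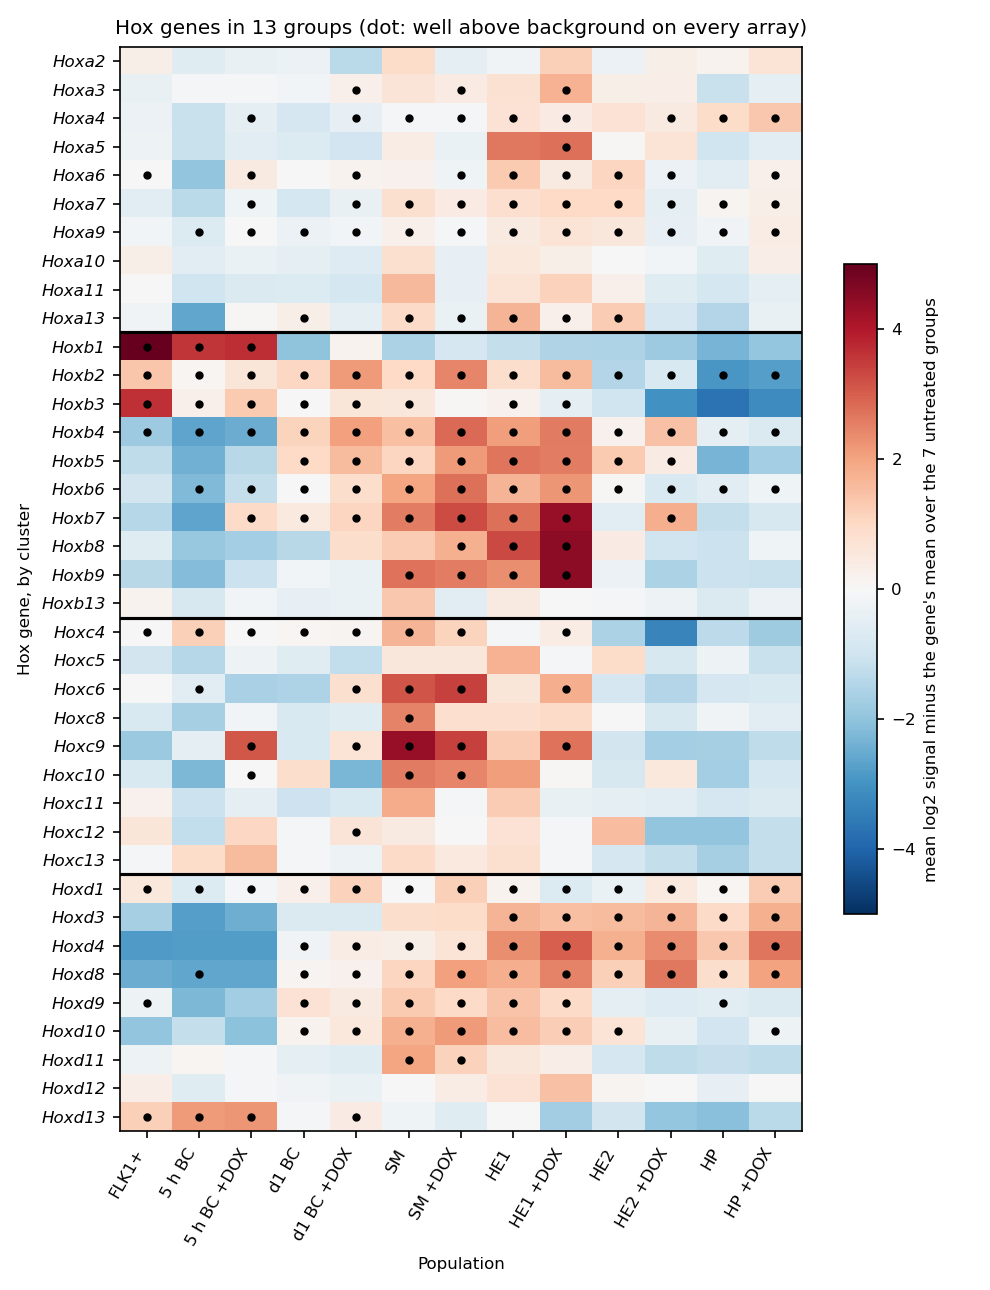
Mean log2 signal of 38 Hox genes (rows, by cluster) in the 13 groups (columns), each gene relative to its own mean over the 7 untreated groups. A dot marks groups in which the gene was well above background on every array. Hoxb1 and the brighter Hoxb3 probe are highest in FLK1+ cells, Hoxb7 to Hoxb9 in SM and HE1, Hoxc6 and Hoxc9 in SM, and Hoxd4 and Hoxd8 from d1 BC onwards.

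RefSeq promoters (250 bases before the transcription start, build GRCm38.p6) were at hand for 22 of the 38 genes, in 24 entries. They are printed for the members whose courses differed most plainly in these cultures: Hoxb1, which was lost, Hoxb4, which rose, Hoxb8, which was detected on all arrays of HE1 but of no other untreated population, and Hoxd4, which came on by day 1 and stayed. Capitals mark a match to TGATNNAT, the PBX-HOX composite motif, on either strand.
Hoxb1, chr11:96365508-96365757, plus strand: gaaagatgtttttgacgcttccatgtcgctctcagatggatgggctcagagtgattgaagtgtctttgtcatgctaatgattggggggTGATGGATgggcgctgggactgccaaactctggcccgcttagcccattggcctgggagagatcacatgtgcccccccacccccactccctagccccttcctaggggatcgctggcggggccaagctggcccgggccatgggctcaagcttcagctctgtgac
Hoxb4, chr11:96318017-96318266, plus strand: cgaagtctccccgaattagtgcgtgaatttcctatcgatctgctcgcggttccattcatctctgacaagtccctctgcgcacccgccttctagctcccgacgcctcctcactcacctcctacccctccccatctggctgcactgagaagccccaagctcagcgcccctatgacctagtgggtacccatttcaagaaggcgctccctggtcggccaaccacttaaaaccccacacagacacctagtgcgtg
Hoxb8, chr11:96281655-96281904, plus strand: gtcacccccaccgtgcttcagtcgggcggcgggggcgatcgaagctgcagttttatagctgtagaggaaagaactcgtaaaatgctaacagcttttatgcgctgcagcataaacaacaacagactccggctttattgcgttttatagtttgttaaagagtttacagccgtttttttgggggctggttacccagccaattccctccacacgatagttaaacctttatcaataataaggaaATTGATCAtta
Hoxd4, chr2:74721728-74721977, plus strand: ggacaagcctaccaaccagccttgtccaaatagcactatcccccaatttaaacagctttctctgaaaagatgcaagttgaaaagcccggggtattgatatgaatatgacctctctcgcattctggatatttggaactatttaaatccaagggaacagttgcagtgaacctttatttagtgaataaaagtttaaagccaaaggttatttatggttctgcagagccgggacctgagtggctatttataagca

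The match in the Hoxb1 promoter began 162 bases before the start and that in the Hoxb8 promoter 11 bases before it. The windows of Hoxb4 and Hoxd4 had none. PBX-HOX matches occurred in 4 of 24 Hox promoters (of Hoxa2, Hoxb1, Hoxb8 and Hoxd11) and in 7.68% of all 32851 promoters of this length. The AP-1 motif TGANTCA was found in 1 Hox promoter, of Hoxd11, and in 6.75% of all, the ATF and CREB motif TGACGTCA in 0 and 1.55%, and the TEAD motif GGAATG in 1, of Hoxa9, and 12.64%. Both strands were searched, the AP-1 and CREB letters read the same on both, and no Hox promoter held more than 1 of these motifs. A match is a stretch of letters, and its use by a factor was not measured.

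During the first 5 h of blast culture no Hox gene passed the test. Of 13 tested genes, 2 were higher and 11 lower, with a median log2 difference of -1.21 against -0.18 over all genes, of which 42.2% were higher. Of those detected on every array of both groups, 5 of 7 Hox genes and 62.6% of all genes were lower. None was called (limma, adjusted p under 0.05 and at least 2-fold, 2.84% of all genes), and 2 had an unadjusted p under 0.05, as did 15% of all genes. Hoxb3 read 1.14 and 1.23 in FLK1+ cells and -3.54 and -0.84 at 5 h, a difference of -3.37 ± 1.30 (adjusted p = 0.213). The second Hoxb3 probe averaged -3.66 at 5 h, so the size of this difference depends on the probe.

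Between 5 h and day 1, Hoxb1 fell out of detection while Hoxb4 rose. Hoxb1, the most 3′ gene of its cluster and an early target of retinoic acid that patterns the hindbrain, read 0.32 and 0.40 in FLK1+ cells, -1.44 and -0.74 at 5 h, and -6.98 and -6.40 in d1 BC. It was above background on both arrays of the first 2 stages and on none of any later untreated stage. From 5 h to d1 BC it fell by 5.60 on the log2 scale, at least 16.7-fold (± 0.83, adjusted p = 0.00237). Hoxb4 read -1.91 and -1.73, then -2.83 and -2.39, then 0.87 and 1.35. Every later untreated value lay above every value of the first 2 stages. Its rise from 5 h to d1 BC was 3.72 ± 0.56, or 13.2-fold (adjusted p = 0.00237).

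These were the only calls among 17 tested Hox genes, 1 in each direction, beside 1.44% of all genes called, 0.555% higher and 0.883% lower. On the slide that held an array of each group, the differences were -5.66 for Hoxb1 and 3.74 for Hoxb4. Hoxb4 missed the threshold without d1 BC replicate 2 (3.48, adjusted p = 0.0614) or without 5 h replicate 1 (3.50, adjusted p = 0.0659), and Hoxb1 passed with any array left out. In all, 12 of the 17 were higher (52.2% of all genes) and 5 lower, with a median of 1.38 against 0.04 over all genes, and 10 had an unadjusted p under 0.05 (10.6% of all genes). Hoxa13, Hoxb5, Hoxb7, Hoxd4, Hoxd9 and Hoxd10 were tested through d1 BC alone and Hoxb1, Hoxc6 and Hoxd13 through 5 h alone, which favours their directions. Detected on every array of both groups, Hoxa9, Hoxb2, Hoxb4, Hoxb6, Hoxd1 and Hoxd8 were higher and Hoxb3 and Hoxc4 lower. Fibroblast and feeder markers were at 3.05 to 3.32 at 5 h and 5.04 to 5.33 in d1 BC, with 2 of 7 called higher (Col1a2 and Postn) and 1 lower (Thy1), 1 of 5 smooth muscle markers was called higher (Acta2), and of 5 FLK1+ mesoderm markers 3 were called lower (Etv2, Mesp1 and T). Their part in the Hox differences was not tested. Of 6 tested Hoxd genes 5 were higher in d1 BC and 1 lower, with 0 called. The lower one, Hoxd13, read -2.84 and -2.41 at 5 h and -4.73 and -4.97 in d1 BC. Hoxd4, a gene of the neck and upper trunk, read -5.83 and -5.58 in FLK1+ cells and -5.68 and -5.65 at 5 h, not well above background, and -3.57 and -2.50 in d1 BC. From d1 BC on it was above background on all 21 arrays. Hoxd8, a trunk gene, read -4.49 and -3.88 at 5 h and -2.11 and -0.80 in d1 BC. Neither step passed the pairwise test, and over the 7 untreated groups the F-test gave adjusted p = 8.47e-05 for Hoxd4 and 0.000298 for Hoxd8.

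**Figure D3:**
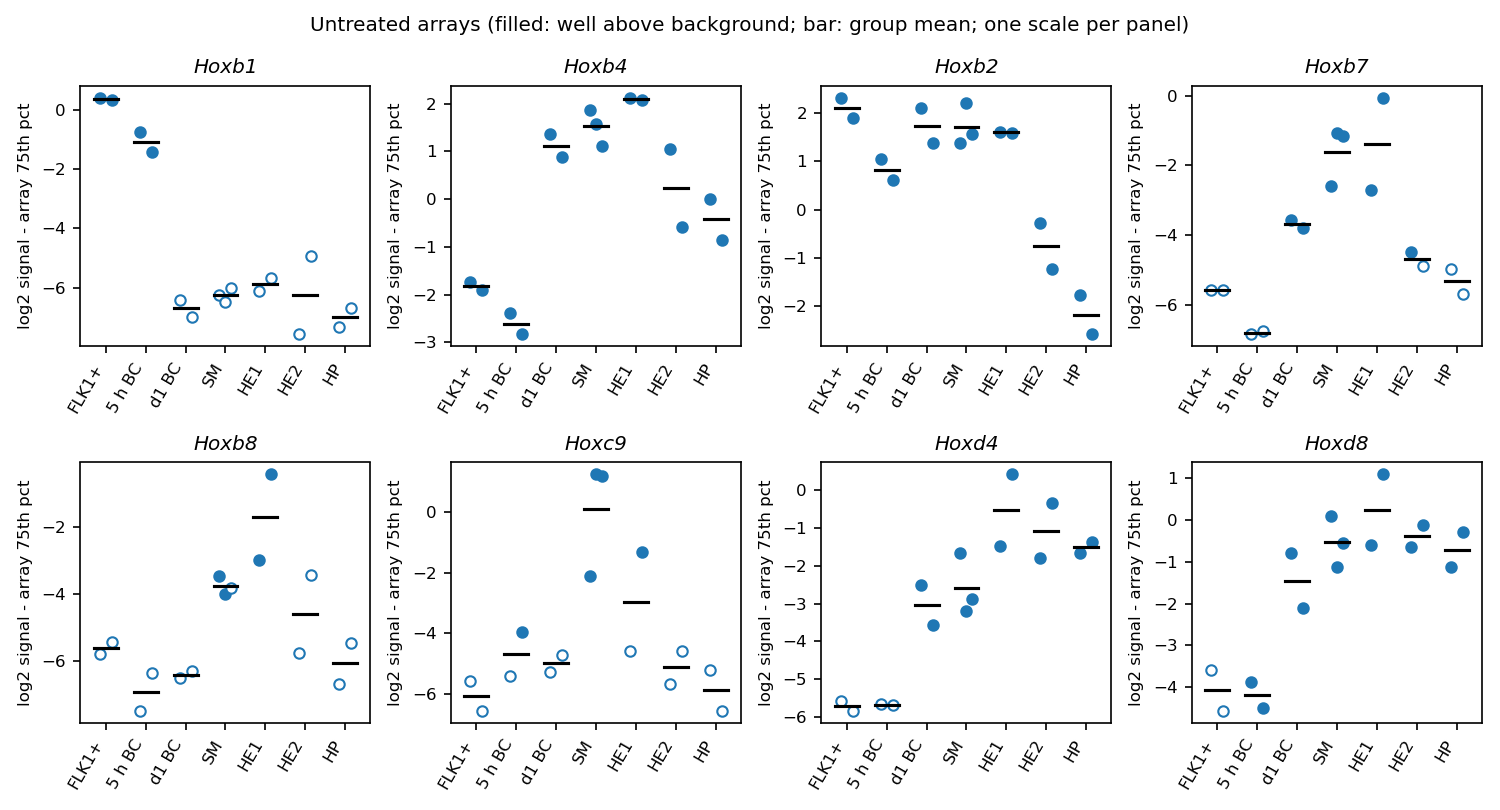
Log2 signal relative to the array's 75th percentile (vertical axis, its own range in each panel) for 8 Hox genes on the untreated arrays of 7 populations (horizontal axis). Points are arrays, filled where the probe was well above background, and bars are group means. Hoxb1 is filled in FLK1+ cells and at 5 h, Hoxd4 from d1 BC on, and Hoxb2 is lower on all HE2 and HP arrays than on all SM and HE1 arrays.

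From d1 BC to SM, most tested Hox genes read higher, and none passed the test. Of 22 tested, 20 were higher and 2 lower (17 and 5 with median scaling), with a median of 1.27 against 0.01 over all genes, and for the 5 Hoxc genes the median was 3.27. Hoxc6, Hoxc8, Hoxc9 and Hoxc10 entered the test through SM alone, as did 8 of the 22 genes, which favours that direction. Among the 14 genes detected on every array of both groups, 12 were higher (median 0.57), as were 48.7% of all such genes. None was called by limma (0.243% of all genes, lowest adjusted p = 0.152), while 8 had an unadjusted p under 0.05 (5.86% of all genes), all of them higher. On the slide with both groups 17 of 22 were higher. In 9 the SM arrays all lay above the d1 BC arrays, which 13.4% of all genes did. Hoxc9, a thoracic patterning gene, read -4.71 and -5.27 in d1 BC and 1.26, -2.12 and 1.20 in SM, and Hoxc6, of the same cluster, read -5.94 and -5.41, then 0.36, -3.98 and 0.66. In both, SM replicate 2, the library with high endothelium markers, was the low one. Without it Hoxc9 rose by 6.22 ± 1.24 (adjusted p = 0.0400) and Hoxc6 by 6.18 ± 1.21 (adjusted p = 0.0370), both called. With all 3 SM arrays, Hoxc9 in SM was at least 25.5-fold and Hoxc6 at least 17.9-fold above d1 BC, where neither was well above background. The summed log2 level of the 7 fibroblast and feeder markers (Col1a1, Col1a2, Col3a1, Dcn, Lum, Thy1, Postn) was 5.04 to 5.33 in d1 BC and 7.42 to 7.71 in SM, with 1 of 7 called higher (Col1a2), and its part in the Hox differences was not tested.

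From d1 BC to HE1, Hoxb8 was the only gene called, and it entered the test through HE1 alone. Hoxb8, which holds myeloid progenitors in an immature state when overexpressed, read -6.32 and -6.53 in d1 BC, not well above background, and -0.43 and -3.00 in HE1. It was higher in HE1 by 4.71 ± 0.92, at least 10.8-fold (adjusted p = 0.00811). It was not called with normexp background correction, the authors' values, the slide as a fixed block or a fit of only these groups. The call was lost without d1 BC replicate 1 (adjusted p = 0.0667), d1 BC replicate 2 (0.101) or HE1 replicate 1 (3.42, adjusted p = 0.0987), and no slide held both groups. It was the only call among 20 tested Hox genes (3.13% of all genes were called, 1.83% higher). With detection in both groups required, Hoxb8 was not tested and no Hox gene was called. Of the 20, 17 were higher and 3 lower, with a median of 1.49 against 0.05 over all genes, and 11 of the 13 genes detected on every array of both groups were higher (49.8% of all such genes). In 14 of the 20 the HE1 arrays both lay above the d1 BC arrays (29.7% of all genes). The summed endothelium markers were at 1.87 to 2.55 in d1 BC and 6.12 to 7.00 in HE1, with 1 of 5 called higher (Tie1), and the smooth muscle markers at 10.38 or more in d1 BC and 8.07 to 9.23 in HE1, with 2 of 5 called lower (Cnn1 and Tpm1). Their part was not tested.

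Between SM and HE1, sorted on the same day of culture, no Hox gene passed the test. Of 25 tested genes 14 were higher in HE1 and 11 lower (9 and 16 with median scaling), the median difference was 0.10 against 0.03 over all genes, and 0 were called by limma (0.568% of all genes; 4 Hox genes and 8.61% of all genes had an unadjusted p under 0.05, lowest adjusted p = 0.223). All 5 tested Hoxc genes were lower in HE1, with a median of -1.81, and all 5 were tested through SM alone. Of the 16 Hox genes detected on every array of both groups, 11 were higher in HE1 (51.2% of all such genes). Within slides the lean differed, with 17 of 25 genes higher in HE1 on slide 1 and 8 of 25 on slide 3, which held SM replicate 2. Of these, Hoxc9 read -1.32 and -4.60 in HE1 and Hoxc6 -1.89 and -5.16, and replicate 2 was again the lower of each pair.

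With the appearance of CD41, between HE1 and HE2, Hoxb2 fell. Hoxb2, which patterns the hindbrain, read 1.60 and 1.62 in HE1 and -1.23 and -0.27 in HE2, a 5.13-fold drop (-2.36 ± 0.59, adjusted p = 0.0396). The groups did not overlap. On slide 1 the difference was -2.83, and on slide 3 it was -1.89. Hoxb4, at 2.07 and 2.12 in HE1 and -0.59 and 1.05 in HE2, differed by -1.87 (adjusted p = 0.103). With the slide as a fixed block, both slides holding an HE1 and an HE2 array, Hoxb4 was called as well (± 0.40, adjusted p = 0.0135), as it was with the slide as a random block (0.00773), quantile normalization, normexp background correction or the authors' values. Hoxb8 was called too with the slide as a fixed or random block or the replicate number as a block, and Hoxb7 with the slide as a random block. Both were tested through HE1 alone.

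With the main settings, Hoxb2 was the only call among 19 tested genes (2.33% of all genes were called, 1.8% lower). It missed the threshold without HE1 replicate 1 (adjusted p = 0.216), HE1 replicate 2 (0.187, with Hoxb7 called instead) or HE2 replicate 1 (-1.88, adjusted p = 0.390), and without HE2 replicate 2 both Hoxb2 and Hoxb4 were called. Of the 19 tested genes, 16 were lower in HE2 and 3 higher (median -0.85 against 0.04 over all genes), 8 of 8 Hoxb genes being lower (median -2.11), 6 of 6 Hoxd genes (median -0.58) and 2 of 5 Hoxa genes (median 0.003). Of the 13 detected on every array of both groups, 11 were lower (45.5% of all such genes). On slide 1, 13 of 19 were lower, and on slide 3 all 19 were. The arrays did not overlap for 9 of the lower genes, as for 16.1% of all genes. HE2 replicate 1 was the dimmest array, with a 75th percentile signal of 73.2 against up to 636 on the brightest. Markers of other cells moved with this step. The fibroblast and feeder markers were at 5.53 to 6.46 in HE1 and 1.95 to 2.40 in HE2, with 2 of 6 tested called lower (Col1a2 and Col3a1), and the 5 smooth muscle markers (Acta2, Tagln, Cnn1, Myl9, Tpm1) at 8.07 to 9.23 and 5.82 to 6.00, with 1 of 5 called lower (Acta2). Their part in the Hox differences was not tested. These are bulk samples, in which fewer cells expressing a gene and less RNA per cell cannot be told apart.

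From HE2 to HP no Hox gene passed the test either. Of 15 tested Hox genes 13 were lower and 2 higher (11 and 4 with median scaling, median -0.65 against 0.08), and 0 were called by limma (0.00394% of all genes; 3 Hox genes and 6.05% of all genes had an unadjusted p under 0.05, lowest adjusted p = 0.618). Within slides 12 and 11 of 15 were lower.

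Between the 2 end points of the culture, HP and SM, 8 of 23 tested Hox genes were called lower in HP and none higher (limma; 9.33% of all genes were called, 6.21% lower and 3.12% higher). The 8 were 5 Hoxb genes (Hoxb2, Hoxb3, Hoxb4, Hoxb7 and Hoxb9) and 3 Hoxc genes (Hoxc4, Hoxc9 and Hoxc10). In all, 19 were lower and 4 higher, with a median of -2.69 against 0.14 over all genes, and 15 had an unadjusted p under 0.05 (17.3% of all genes). The groups did not overlap for 17 of the lower genes, as for 15.6% of all genes. On slide 1, 18 of 23 were lower (median -2.47), and on slide 3, 21 of 23 (median -1.87). With the slide as a random block 13 were called, the 8 among them, and with it as a fixed block 12. Quantile normalization gave 5 calls, the authors' values 3 and normexp background correction 2.

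Hoxc9 read 1.26, -2.12 and 1.20 in SM and -6.57 and -5.21 in HP, where it was not well above background. It was at least 34.7-fold lower in HP (-6.01 ± 1.26, adjusted p = 0.00363). Hoxb2 read 2.21, 1.38 and 1.56 in SM and -2.59 and -1.77 in HP, 14.9-fold lower (-3.89 ± 0.54, adjusted p = 0.000108). HP replicate 2, the one with more smooth muscle marker signal, was the higher for Hoxb2 but the lower for Hoxb3 (-7.10 against -5.21). The part of that signal was not tested.

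Hoxc10, a lumbar patterning gene, was lower by 4.32 on the log2 scale in HP, that is a difference of -4.32 ± 1.26 (adjusted p = 0.0340), reading -2.63, 0.25 and -1.79 in SM against -6.58 and -4.84, where 1 of the 2 HP arrays detected it. Hoxb3 differed by -4.25 ± 1.19, at least 11.7-fold (adjusted p = 0.0268), and Hoxb9, a thoracic gene, by -3.79 ± 0.93, at least 6.86-fold (adjusted p = 0.0109). Both were above background on all SM arrays and on no HP array. The second Hoxb3 probe averaged -2.29 in SM and -6.09 in HP. Among the other called genes, Hoxb7 was at least 9.60-fold lower (adjusted p = 0.00535) and Hoxb4 3.86-fold lower (adjusted p = 0.0186), with Hoxb4 at 1.58, 1.87 and 1.12 in SM and at -0.86 and 0.01 in HP, above background throughout.

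**Figure D4:**
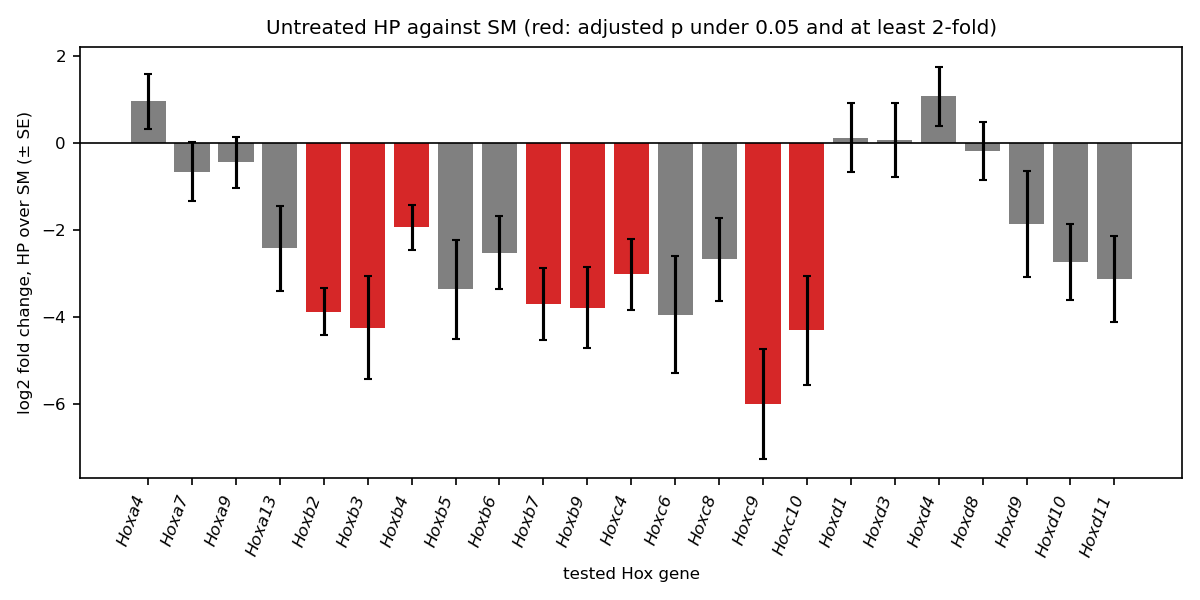
Log2 difference between untreated HP and SM (vertical axis, bars with ± SE from the fit) for the 23 tested Hox genes (horizontal axis, by cluster). Red bars are the 8 genes called at adjusted p under 0.05 and at least 2-fold. The 12 Hoxb and Hoxc bars point down, as do those of Hoxd9, Hoxd10 and Hoxd11, while Hoxd1, Hoxd3, Hoxd4 and Hoxd8 lie between -0.19 and 1.06.

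By cluster, all 7 tested Hoxb genes were lower in HP (median -3.71), as were all 5 Hoxc genes (median -3.96) and 3 of 4 Hoxa genes (median -0.56). Of the 7 Hoxd genes 4 were lower (median -0.19) and none was called. The 4 were Hoxd8, Hoxd9, Hoxd10 and Hoxd11. For Hoxd9, Hoxd10 and Hoxd11 both HP arrays lay below every SM array. Hoxd10 and Hoxd11, tested through SM alone, were called with the slide as a fixed or random block. Hoxd4 read -3.19, -1.67 and -2.89 in SM and -1.38 and -1.66 in HP (difference 1.06 ± 0.69, adjusted p = 0.539), so that its HP arrays lay above its SM arrays, and Hoxd8 differed by -0.19 ± 0.67 (adjusted p = 0.964). The difference between clusters was not tested. All 5 Hoxc genes and 4 of the Hoxb genes (Hoxb3, Hoxb5, Hoxb7 and Hoxb9) were tested through SM alone, as were 12 of the 23 genes in all, and each of the 12 was lower in HP. Among the 10 genes detected on every array of both groups, 7 were lower and 3 higher (median -0.56 against 0.14 over all such genes), and Hoxb2 and Hoxb4 were called. Hoxa9, known from hematopoietic stem cells, read -3.35, -3.35 and -2.62 in SM and -2.87 and -4.26 in HP, with overlap.

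Without SM replicate 2 there were again 8 calls, with Hoxb6 and Hoxc6 in place of Hoxb4 and Hoxc10. Without SM replicate 1 there were 5 calls, and without HP replicate 2 also 5. Without HP replicate 1 only Hoxb2 (-3.48, adjusted p = 0.00789) passed. Fibroblast and feeder markers moved with this contrast: 7 of 7 were called lower in HP, where their summed log2 level was 2.39 to 3.67. So did smooth muscle markers, 5 of 5 being called lower. Their part in the Hox differences was not tested.

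Genes that act with or upstream of the Hox genes were followed as lists. Of 9 TALE cofactor genes, all tested, 4 differed among the untreated groups (Meis1, Meis2, Pbx3 and Pknox2). Meis1, a leukaemia-associated cofactor, had means of 0.81 in d1 BC, 2.60 in HE1 and 3.34 in HP, and its rise from d1 BC to HE1 was 1.79 ± 0.45 (adjusted p = 0.0336). Meis2, its paralog, had a mean of 2.80 in HE1 and -3.03 in HE2, a difference of -5.82 ± 0.49 (adjusted p = 9.49e-06), and Pknox2 differed by -3.72 ± 0.80 (adjusted p = 0.0154). Both were also lower in HP than in SM, with differences of -5.14 for Meis2 and -5.64 for Pknox2. In HE2, 1 of the 2 arrays detected Meis2 and Pknox2. Meis1 was called in neither of these contrasts.

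Among 10 caudal and posterior axis genes, 8 could be tested and all 8 differed between untreated groups. T, the mesoderm factor brachyury, and Cdx1 were lower in d1 BC than at 5 h, with differences of -4.69 (adjusted p = 0.0448) and -3.28 (adjusted p = 0.0331). In HP against SM, 6 of 7 tested were called lower (6.21% of all genes) and none higher, and 4 of the 6 were not detected on every HP array, having been tested through SM alone. Evx1, the homeobox gene beside the Hoxa cluster, and T, both above background on no HP array, were at least 33.6-fold and 13.4-fold lower. Cdx2 differed by -5.74 ± 0.74 (fitted without HE1 replicate 2, where its spot was flagged) and was detected on 1 of the 2 HP arrays. Of 11 retinoid genes, 10 were tested and 7 differed. Aldh1a2, which makes retinoic acid, was lower in HP than in SM (-4.27 ± 0.76, adjusted p = 0.000891, detected on 1 of the 2 HP arrays), and Cyp26a1, which degrades it, was lower in HE2 than in HE1 (-3.87 ± 0.74, adjusted p = 0.00715, detected on 1 of the 2 HE2 arrays) and in HP than in SM (-3.52 ± 0.68). Cyp26b1, which also degrades it, was higher in HE1 than in d1 BC (4.36 ± 0.56, adjusted p = 0.000644). Of the 6 measured genes of the MLL complex list none differed among the untreated groups. Kmt2a, the gene of MLL itself, had no matched probe and was not measured.

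With dnFOS induced, no Hox gene passed the test in any of the 6 populations. Of 17 genes tested at 5 h 3 had an unadjusted p under 0.05, of 22 in d1 BC 0, of 25 SM genes 2, of 24 HE1 genes 1, of 15 HE2 genes 2 and of 13 HP genes 0. Over all genes these shares were 4.99%, 1.44%, 2.58%, 1.14%, 8.92% and 3.5%. Over all genes, limma called 0.00421% at 5 h, 0% in d1 BC, HE1 and HE2, 0.0084% in SM and 0.0398% in HP, so few genes of any kind were called. The lowest adjusted p of a Hox gene was 0.540, in HE2. The median log2 difference of the Hox genes was 0.67 at 5 h against -0.04 over all genes. In d1 BC it was 0.52 against 0.13, in HE1 0.33 against 0.09 and in HP 0.56 against 0.25, while in SM it was -0.15 against 0.09 and in HE2 -0.27 against 0.17. The last 2 turned positive with quantile normalization, to 0.40 and 0.22.

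**Figure D5:**
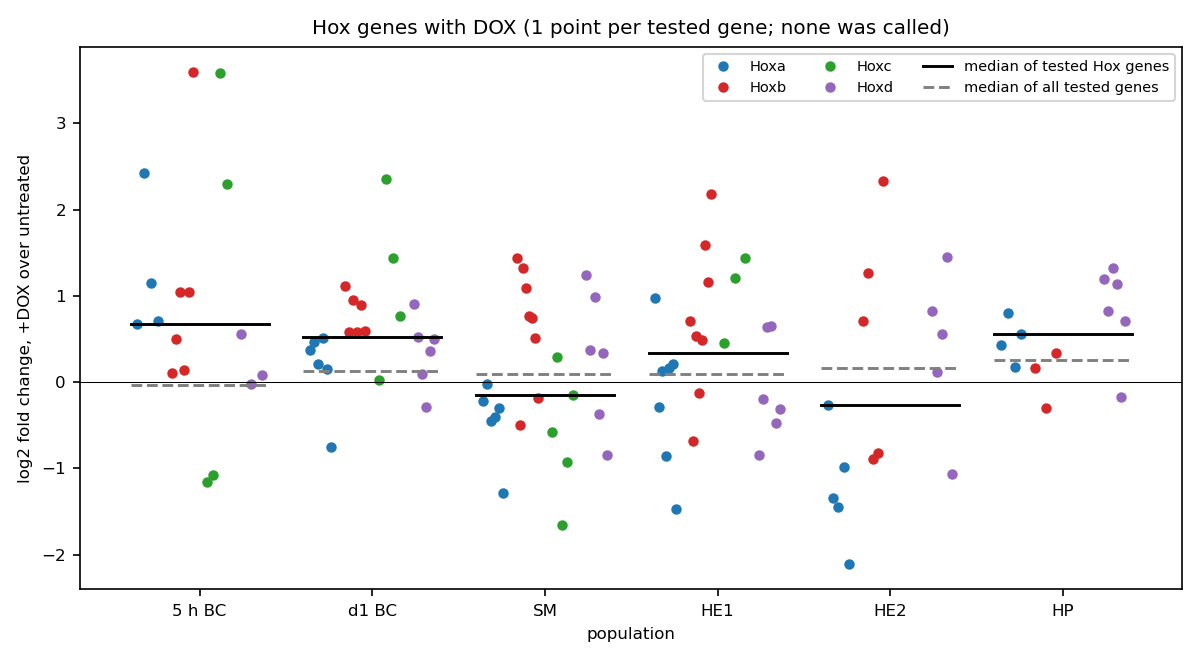
Log2 difference between DOX and untreated cells (vertical axis) for each tested Hox gene (points, coloured by cluster) in 6 populations (horizontal axis). Solid lines are medians of the tested Hox genes and dashed lines medians of all tested genes. No point passed the test, and the Hox medians run from -0.27 in HE2 to 0.67 at 5 h.

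In d1 BC, 20 of 22 tested Hox genes were higher with DOX and 2 lower, where 62.9% of all genes were higher, and within the slides 18 of 22 and 19 of 22 were higher. In HP, 11 of 13 were higher (68.0% of all genes), 9 with quantile normalization or median scaling, and 10 and 11 within the slides. At 5 h 14 of 17 were higher (47.2% of all genes), which became 10 of 17 with quantile normalization and 9 of 17 with median scaling. In SM 11 of 25 were higher (56.2% of all genes), which became 18 with quantile normalization and 16 with median scaling, so the lean in SM turned with the scaling. In HE1 15 of 24 were higher (18 with quantile normalization) and in HE2 7 of 15 (8 with either scaling), where 56.2% of all genes were higher in each. Among Hox genes detected on every array of both groups, 8 of 9 were higher with DOX at 5 h, 12 of 13 in d1 BC, 10 of 20 in SM, 10 of 19 in HE1, 6 of 11 in HE2 and 9 of 10 in HP. The share over all genes detected so is not given beside these counts, which are a description. The arrays did not overlap for 9 genes higher with DOX in d1 BC (18.4% of all genes) and for 6 in HP (25.6%), with 0 lower in both. At 5 h they did not overlap for 9 higher (18.6%) and 2 lower (16.4%), in HE1 for 3 higher (8.74%) and 4 lower (8.33%) and in HE2 for 4 higher (20.4%) and 5 lower (14.3%). In d1 BC, DOX and untreated arrays also stood apart in the summed fibroblast and feeder markers (3.65 to 4.01 with DOX, 5.04 to 5.33 without), hematopoietic markers (1.81 to 1.84 and 2.41 to 2.65) and FLK1+ mesoderm markers (4.38 to 4.80 and 3.27 to 4.33), with no gene of these lists called, and their part in the Hox values was not tested. At 5 h the FLK1+ mesoderm markers were at 5.38 to 5.68 with DOX and 4.64 to 5.07 without. Endothelium markers there were at 0.44 to 0.57 and -0.07 to 0.27, fibroblast and feeder markers at 2.86 to 2.90 and 3.05 to 3.32. In HP the FLK1+ mesoderm markers were at 5.56 to 5.58 with DOX and 4.03 to 4.91 without. No gene of these lists was called there either, and their part was not tested.

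Single members moved unevenly between replicates. At 5 h, Hoxb7 read -6.76 and -6.85 untreated, not well above background, and -4.41 and -1.99 with DOX, at least 4.95-fold higher (3.60 ± 0.90, adjusted p = 0.994). Hoxc9 read -3.98 and -5.41 untreated and 1.30 and -3.53 with DOX (3.58 ± 1.38, adjusted p = 0.994), and the gap came mostly from DOX replicate 1. Hoxa6 differed by 2.43 ± 1.05 (adjusted p = 0.994), and untreated replicate 1 was the lowest of its 4 values. That untreated array was alone on its slide.

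Among the tested genes in d1 BC, those without overlap and with the largest differences were Hoxc6 (2.35 ± 1.47), Hoxc9 (1.44 ± 1.38) and Hoxb2 (1.11 ± 0.59), each with an adjusted p of 1.00. Both Hoxc genes were above background on both DOX arrays and on no untreated array, so their DOX means lay at least 3.55-fold and 2.01-fold higher. These bounds make no allowance for the spread between arrays, and neither difference passed the test. Hoxb8 and Hoxb1 were detected on 1 of the 2 DOX arrays and on no untreated array and were not tested. In SM, Hoxb2 read 2.21, 1.38 and 1.56 untreated and 3.43 and 2.87 with DOX (1.44 ± 0.54, adjusted p = 0.999), and Hoxb4 read 1.58, 1.87 and 1.12 untreated and 2.70 and 2.99 with DOX (1.33 ± 0.51, adjusted p = 0.999). These were the only 2 of 25 tested Hox genes whose DOX and untreated SM arrays did not overlap, and 4.47% of all genes were higher without overlap. Leaving out both SM replicate 2 libraries gave 1.55 ± 0.73 for Hoxb2 and 1.36 ± 0.70 for Hoxb4.

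In HE1, Hoxb9 read -1.54 and -3.69 untreated and -0.85 and -0.03 with DOX (2.18 ± 1.01, adjusted p = 1.00), Hoxa13 differed by -1.47 ± 1.07 and Hoxa3 by 0.97 ± 0.74. In HE2, Hoxb7 read -4.88 and -4.49 untreated and -3.51 and -1.19 with DOX (2.33 ± 0.90, adjusted p = 0.540), where 1 of the 2 untreated arrays detected it. Hoxa13, detected on neither DOX array, read -0.65 and -4.10 untreated and -4.72 and -4.25 with DOX, at least 4.33-fold lower (-2.11 ± 1.07). The gap came from untreated replicate 1, the dimmest array, without which it was -0.39, and the second Hoxa13 probe was above background on no HE2 array. Hoxd8 was higher by 1.45 ± 0.73, and both had the same adjusted p as Hoxb7. In HP the 3 were Hoxd genes, the cluster detected there best: Hoxd4 (1.33 ± 0.75), Hoxd1 (1.19 ± 0.87) and Hoxd8 (1.14 ± 0.73), each with an adjusted p of 0.999. Hoxd4 read -1.38 and -1.66 untreated and 0.34 and -0.72 with DOX.

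Averaged over the 6 populations, Hoxb7 had the largest Hox difference with DOX, 1.54 ± 0.36 (adjusted p = 0.118), positive in 6 of 6 populations. It was above background on neither untreated array at 5 h and on no HP array with or without DOX, so that part of this mean rests on undetected values. Hoxc9 came next with 0.85 ± 0.56 (adjusted p = 0.698, 4 of 6), then Hoxb2 with 0.77 ± 0.24 (adjusted p = 0.344, 6 of 6), then Hoxd8 with 0.72 ± 0.30 (adjusted p = 0.589, 5 of 6) and Hoxb4 with 0.65 ± 0.23 (adjusted p = 0.464, 5 of 6). Of 30 tested Hox genes none was called (0.17% of all genes), and Hoxb7, Hoxb2, Hoxd8 and Hoxb4 had an unadjusted p under 0.05 (7.69% of all genes). With the slide as a random block Hoxb7 was called (1.57 ± 0.34, adjusted p = 0.0340), and with it as a fixed block it was not (1.61 ± 0.38, adjusted p = 0.104). Hoxb4, in each population, differed by 0.14 at 5 h, by 0.95 in d1 BC, by 1.33 in SM, by 0.53 in HE1, by 1.27 in HE2 and by -0.30 in HP. Its value at 5 h turned negative with each other scaling. From these arrays, the paper lists Hoxb4 among stem cell genes with higher expression when AP-1 was blocked. It used significant changes of at least 2-fold and refers to separate manual checks. No Hox gene had a DOX effect that differed among populations (interaction F-test, 0 of 30 called, 0% of all genes, 2 with an unadjusted p under 0.05, 1.86% of all genes). No TALE, caudal, retinoid or MLL gene of the lists was called with DOX in any population.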

How the data were processed

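Total RNA was labelled with Cy3 and hybridised to 27 Agilent mouse arrays, whose scanner files and a table of normalised values were deposited. Per the file headers, Feature Extraction 10.7.3.1 gave the background-corrected intensity of each spot (the submitters' processing notes name 10.7.1.1 and limma). The deposited log2 values, which the authors made with limma, served as an alternative.

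Here, log2 processed signal minus each array's 75th percentile was used, flagged spots were dropped and spots of a probe averaged. Groups came from the labels. Tests covered genes that every array of 1 or more of the compared groups detected. limma 3.58.1 (R 4.3.3) fitted 13 group means over all 27 arrays (14 residual and 4.49 prior degrees of freedom), with Benjamini-Hochberg adjustment over all tested genes. Calls needed a 2-fold change or more with an adjusted p under 0.05, F-tests the adjusted p alone. "At least" folds compare with the lowest signal well above background on each array, the probe's own signal where that was higher. They bound the difference of the group means and make no allowance for the spread between arrays. The ± values are standard errors of the fit. The number of arrays limits the precision.

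A Hox gene is not reported here and is left out of every count of members, though not of the fit. Members and lists were chosen with earlier results of these data known. Full statistics were given to called Hox genes (at most the 6 largest changes a comparison), to the 3 largest non-overlapping Hox differences with DOX in each population, and to Hoxb4; further values were added after they were seen. Alternatives were other scalings, background corrections, filters, probe rules, blocks and left-out arrays. Deviations of same-numbered arrays correlated by 0.26 to 0.64 in the 7 comparisons whose same-numbered arrays shared slides, and by -0.39 to 0.27 in the other 7. The numbers were therefore not taken as pairs throughout, and the slide was fitted as a block instead. The test was tried on simulated data. Python 3.11.15, pandas 2.3.3, numpy 2.4.6 and matplotlib 3.10.9 handled promoters and plots. Gene coordinates are not given, since the probe annotation uses mm9 and the promoter table GRCm38.p6.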

Additional observations from a re-analysis of the deposited data

How the results depend on the processing

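With 2 or 3 arrays a group and many dim probes, counts of Hox calls depended on the processing, and the causes were not tested. The 19 Hox genes that varied among untreated groups became 12 with quantile normalization, 8 with normexp background correction, 9 with the authors' values and 2 among genes detected in every group. For 5 h against FLK1+ cells, 0 became 2 with normexp and 1 with the authors' values. For d1 BC against 5 h, 2 became 1 among genes detected in every group and 3 with slide as a random block. For SM against d1 BC, 0 became 1 with slide as a random block. For HE1 against d1 BC, 1 became 0 with normexp, the authors' values, detection in every group, slide as a fixed block, or a fit of only these groups. For HE2 against HE1, 1 became 2 with quantile normalization, normexp or the authors' values, 0 with median scaling, no filter, detection in every group or only these groups, 3 with slide as a fixed and 4 as a random block. For HP against SM, 8 became 5 with quantile normalization or only these groups, 2 with normexp, 3 with the authors' values, 2 with detection in every group and 13 with slide as a random block. The mean DOX effect gave 0, and 1 with slide as a random block. Leaving out single arrays gave 12 to 19, 0 to 0, 1 to 2, 0 to 2, 0 to 1, 0 to 2 and 1 to 8 calls in the same order, and 0 for every DOX result, HP against HE2 and HE1 against SM. With the replicate number as a block, 17 genes varied, 2 were called in d1 BC against 5 h, 1 in HE1 against d1 BC, 2 in HE2 against HE1, 6 in HP against SM and 0 elsewhere. With the numbers crossed, DOX at 5 h gave 0. Of 1056 checks of 53 single-gene results, 873 kept direction and side of the threshold, 175 no longer passed and 8 turned direction, all of them Hoxb4 with DOX: at 5 h -0.32 (quantile), -0.50 (median), -0.18 (normexp), -0.26 (authors' values), -0.070 (slide as a fixed block) and -0.080 to 0.36 without single arrays, in HE1 -0.11 to 1.17 and in HP -0.73 to 0.14 without single arrays. Median scaling moved the median of all genes with DOX from -0.04 to -0.67 at 5 h.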
